A study of Drosophila melanogaster with 42 samples.

Results

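The T-box genes of Drosophila melanogaster encode transcription factors that share 1 DNA-binding domain, the T-box. The 8 genes listed here (Doc1, Doc2, Doc3, bi, H15, mid, org-1 and byn) were chosen by family name from the 17684 RefSeq genes annotated on arms 2L, 2R, 3L, 3R, 4 and X, and all 8 were found. Each was described by the base pairs and peaks that 7 DamID peak lists place in its gene body and within 5 kb of it. In intestinal stem cells (ISCs), 6 of the 8 genes lay mostly in Polycomb (Pc) peaks, org-1 held short Pc and Kismet peaks, and byn held no peak. RNA Pol II peaks were found in the body of 0 of the 8.

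T-box factors are best known as regulators of embryonic and larval development. Doc1, Doc2 and Doc3 (Dorsocross) pattern the dorsal ectoderm and heart, and mid (midline) and H15 act in the heart and nervous system. The gene bi (also called omb) is a target of the BMP ligand Dpp in the wing, org-1 acts in the founder cells of visceral muscle, and byn, the fly Brachyury gene, specifies the hindgut. Pc is a reader of a repressive histone H3 methyl mark and keeps many developmental regulators silent outside the cells that use them.

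DamID marks GATC sites near a protein fused to a DNA adenine methyltransferase (Dam), and Dam alone serves as control. The fusions were Dam-Pc, Dam-RNA Pol II, Dam-Kis (Kismet, a CHD remodeler), Dam-Trr (an H3K4 methyltransferase), Dam-Brm (Brahma, a SWI/SNF remodeler), Dam-HP1 and Dam-H1, with 3 samples each and 11 Dam-only samples. Every sample was made from 60 intestines of flies that carried esg-gal4ts NREGal80 with a UAS transgene, raised at 18°C and moved to 29°C at 3 days of age for 1 day. The driver limits Dam to esg-positive cells in which the Notch-responsive Gal80 is off, so the lists describe that population within whole guts. For some HP1 and H1 samples the genotype label ends in a different number than the title, and the title was followed. The RNA-seq samples of kis, trr and white RNAi were not analysed here.

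A deposited list gives 1 call over all samples of a fusion, without height, score or p-value. Values per sample, a spread between replicates and a test of a single gene could therefore not be had, and the depth is unknown. A peak says that a site passed the authors' threshold, not how strongly it was bound. Base pairs without a peak may have few GATC sites or few reads. Of the stem cell markers, esg and Sox21a lay wholly in RNA Pol II peaks, Delta held them over 79.6% and spdo over 26.4% of its body. Of all genes, 41.5% held an RNA Pol II peak, so its presence alone does not mark these cells. Markers of differentiated gut cells held such peaks as well. The enterocyte markers did so in 2 of 2, with Myo31DF at 55.6% RNA Pol II and 73.3% Kismet cover and nub at 6.43% RNA Pol II and 75.9% Pc cover. Of the enteroendocrine markers, pros had 0.977% RNA Pol II and 25.3% Pc cover, and tap held no peak of any list. The visceral muscle markers Mhc, Act57B and bap (3 of 3) held no peak of any list, as did 48.5% of all genes. Whether other gut cells gave part of the signal at the T-box genes was not tested. The lists held 2236 Pc, 6821 RNA Pol II, 4563 Kismet, 4840 Trr, 1569 Brm, 2197 HP1 and 129 H1 peaks.

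The first question was which proteins mark the T-box genes in ISCs. At least 1 bp of the body lay in a Pc peak in 7 of 8 T-box genes, where 5.21% of all genes passed this rule. At least 50% of the body lay in Pc peaks in 6 of 8, against 2.08% of all genes, and the same 6 had at least 70%, against 1.62%. These 6 are not all separate loci, since Doc1, Doc2 and Doc3 lie beside each other and so do H15 and mid. RNA Pol II peaks were found in 0 of 8 bodies, with a background of 41.5%. Kismet peaks were found in 1 of 8 (background 23.5%) and H1 peaks in 1 of 8 (background 0.532%). Peaks of Trr (20.5%), Brm (5.95%) and HP1 (4.64%) were found in 0 of 8, where the percentages are again the share of all genes.

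With 5 kb added on both sides of each gene, the count changed for RNA Pol II only. Pc peaks were found at 7 of 8 T-box genes, against 11.1% of all genes, and RNA Pol II peaks at 1 of 8, against 64.7%. Kismet peaks were found at 1 of 8 (all genes 48.9%) and H1 peaks at 1 of 8 (1.18%). Trr (46.9%), Brm (15.7%) and HP1 (11.5%) still had no peak at any of the 8.

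In base pairs, Pc peaks held 81669 of the 118967 bp of the 8 bodies, or 68.6%, against 3.19% of the bodies of all genes. The median over the 8 genes was 85.0%, with a range of 0% to 100%, and the median over all genes was 0%. Kismet peaks held 745 bp of the 8 bodies, or 0.626%, against 14.5% of the bodies of all genes. H1 peaks held 508 bp, or 0.427%, against 0.0334%, all of it in H15. Because long genes meet a peak more often, the protein-coding genes between the shortest and the longest T-box gene were also counted. Of these 7092 genes, 6.66% held a Pc peak, 1.92% had at least 50% of the body in Pc peaks, 55.8% held an RNA Pol II peak and 35.9% a Kismet peak.

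**Figure D1:**
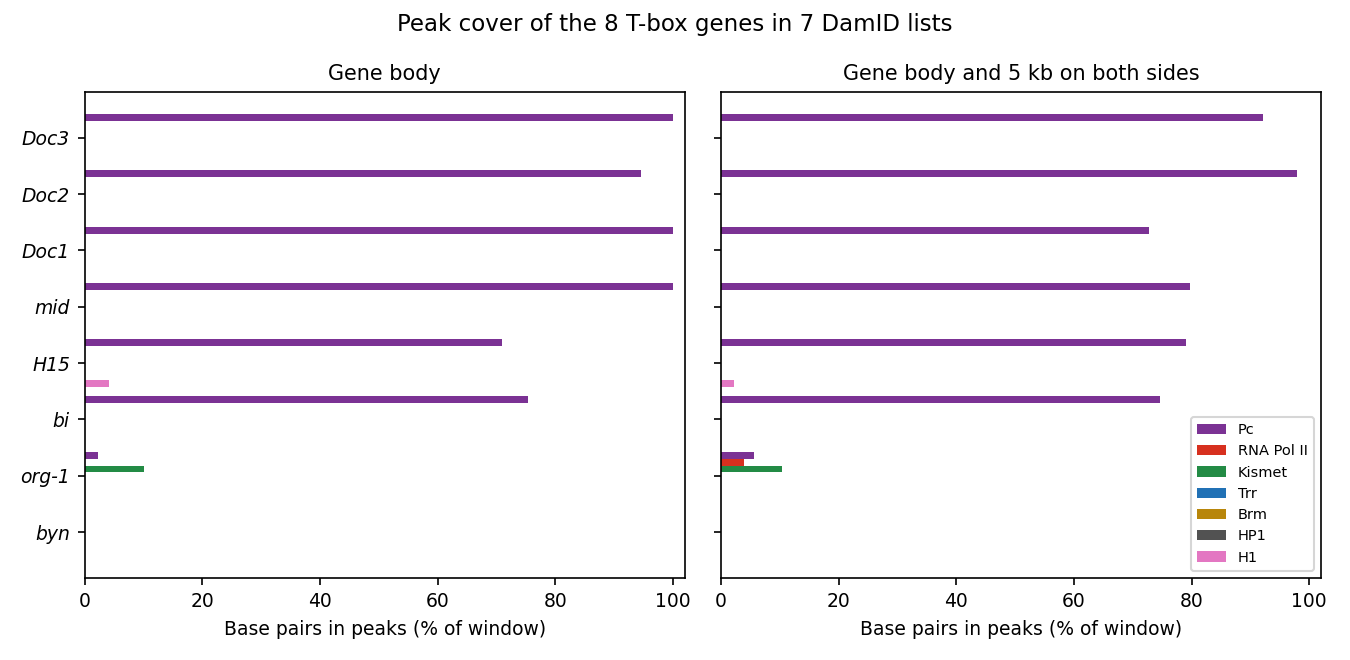
Bars give the percentage of base pairs in peaks (x axis, 0 to 100%) for each T-box gene (rows) and each of 7 lists (colours), in the gene body (left) and with 5 kb added on both sides (right); a missing bar is 0%. Pc bars reach 70.9% to 100% of the body in 6 genes, while org-1 shows short bars and byn none.

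The genes fell into 3 kinds by their Pc cover. Doc1, Doc3 and mid lay wholly in Pc peaks, as did 0.831% of all genes. Doc2 (94.6%), bi (75.4%) and H15 (70.9%) were covered in part. The third kind, org-1 (2.33%) and byn (0%), was nearly or wholly free of Pc peaks. With no spread between samples, the order of Doc2, bi and H15 cannot be set against an error. Across all genes with at least 50% of the body in Pc peaks, 40 of 368, or 10.9%, also held an RNA Pol II peak, against 42.2% of the genes under 50%; the 2 lists share no Dam-only sample. All 6 T-box genes with that cover held no RNA Pol II peak. So did 328 of the 368 genes with that cover (1.85% of all genes), so this is not particular to the T-box genes.

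The 3 Dorsocross genes lie beside each other on 3L in release 6. Doc3 (FBgn0035954) runs from 9005196 to 9007249, Doc2 (FBgn0035956) from 9012686 to 9019246 and Doc1 (FBgn0028789) from 9041375 to 9045042. Doc3 had all of its 2054 bp in 1 Pc peak of 10755 bp, which also covers the start of Doc2 and all of CG5194 between them, so these 3 genes share 1 peak. Doc2 had 6205 of 6561 bp in 3 Pc peaks, and its free stretches were 262 bp and 94 bp long. Doc1 had all of its 3668 bp in 1 Pc peak of 5347 bp.

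From the outer end of Doc3 to the outer end of Doc1, 38697 of 39847 bp, or 97.1%, lay in 6 Pc peaks. The cover was the same between the genes, with 26770 of 27564 bp, as within them, with 11927 of 12283 bp. The noncoding gene lncRNA:CR46451, 445 bp from Doc1, had 98.1% of its body in Pc peaks. No peak of the other 6 lists fell between the outer ends of Doc3 and Doc1.

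Peaks of the other lists began outside the cluster. On the side of Doc3, an RNA Pol II peak of 3031 bp ended 6.42 kb from the gene, over CG5087 and smg (the translational repressor Smaug). The nearest Kismet, Trr and Brm peaks of Doc3 also lay over smg, at 7.54, 7.17 and 8.29 kb. CG5087 held both kinds of peak at separate places, with 1440 bp of its 4383 bp in a Pc peak and 588 bp in the RNA Pol II peak. On the side of Doc1, the arginine kinase gene Argk1 held 2 Kismet peaks (3333 bp), 1 Trr peak (641 bp) and 2 short Pc peaks (698 bp), and Argk2 held none of any list. RNA Pol II was 26.8 kb away from Doc1.

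H15 (FBgn0016660) and mid (FBgn0261963) are neighbours on 2L, the Tbx20 genes of the fly, and had no annotated gene within 5 kb. H15 runs from 5404280 to 5416593 and had 8732 of 12314 bp in 3 Pc peaks. The first, of 10441 bp, covers its low-coordinate end, and the last 1235 bp at the other end were free of Pc peaks. The gene mid runs from 5461639 to 5467610, and all of its 5972 bp lay in 1 Pc peak of 12167 bp.

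H15 was the only T-box gene with H1 peaks. Both were short, from 5407797 to 5408090 (294 bp) and from 5409916 to 5410129 (214 bp), and the Pc peak there runs from 5400384 to 5410824. The H1 list is small, with 129 peaks, and 94 genes held at least 1 bp of one. The Pc and H1 calls share 1 of their 3 Dam-only samples, and its part in this was not tested.

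Between H15 and mid lie 45045 bp, of which 31595 bp, or 70.1%, were in Pc peaks. Around 33.7 kb from the low-coordinate end of H15, other proteins had peaks amid those of Pc. An RNA Pol II peak and a Brm peak had the same edges, from 5437973 to 5438215 (243 bp), at lncRNA:CR31647. A Kismet peak began at the same site and ran to 5441110 (3138 bp), and a second RNA Pol II peak of 156 bp lay from 5440367 to 5440522. Pc peaks ran from 5437950 to 5440522 and from 5440887 to 5443738. Peaks are merged runs of GATC sites, so edges of different lists can fall at the same place. Shared edges therefore do not measure how closely the proteins lie. The Kismet and RNA Pol II calls rest on 3 common Dam-only samples and the Brm call on 3 others, of which Pc used 1. Trr and HP1 had no peak between the outer ends of H15 and mid. The nearest Trr peaks were 96.8 kb from H15 and 78.7 kb from mid.

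**Figure D2:**
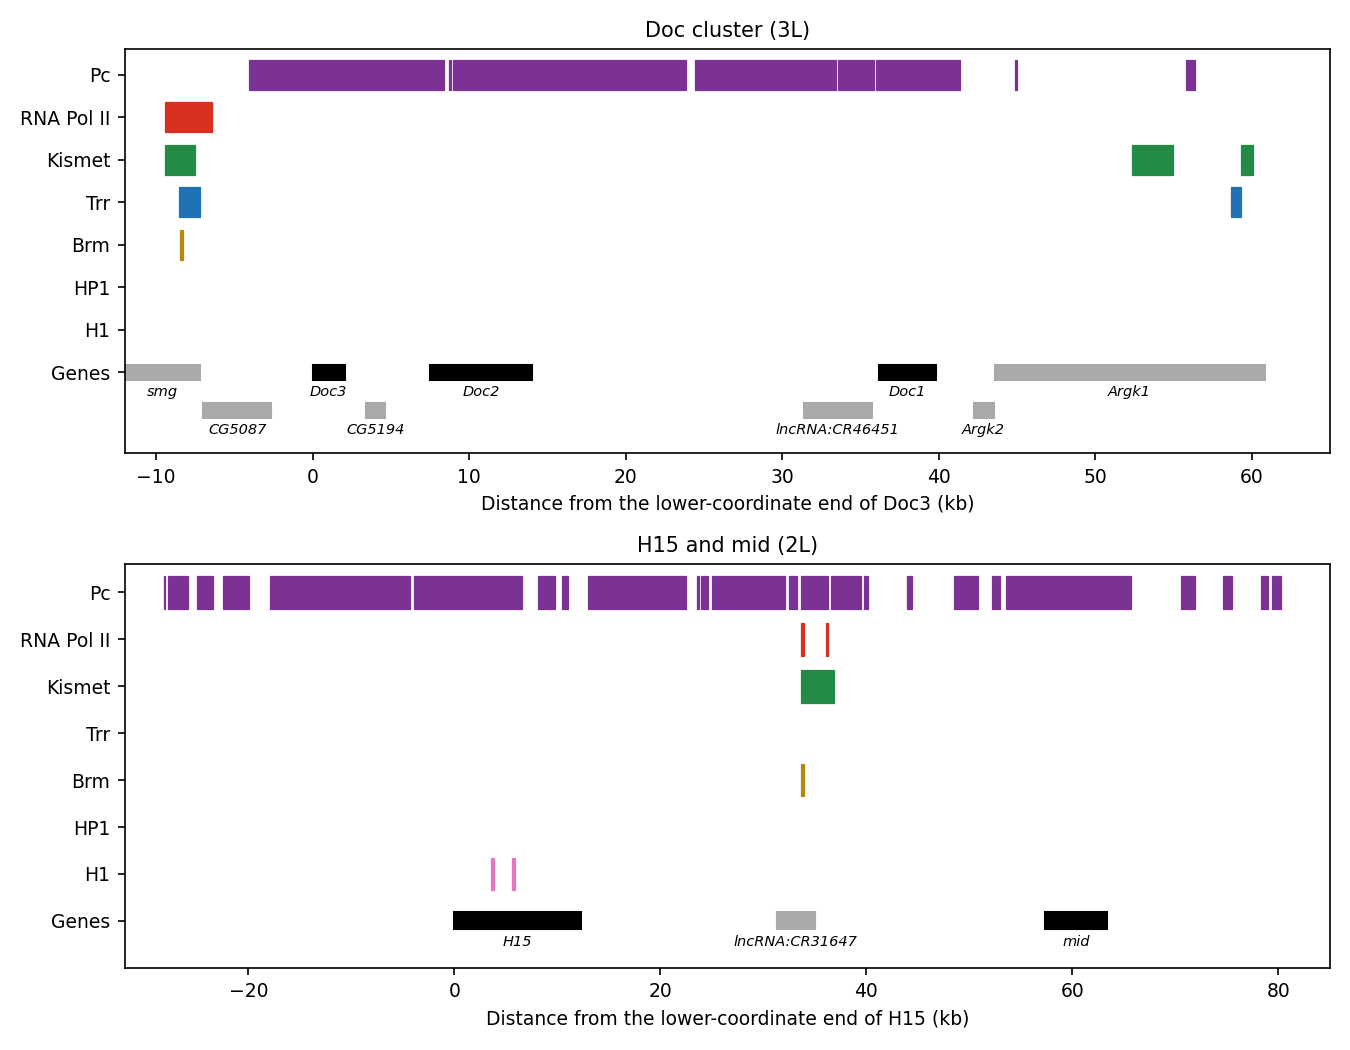
Peaks of each list (coloured blocks, 1 row a list) against the distance in kb from the low-coordinate end of Doc3 (top) and H15 (bottom); black blocks are T-box genes, grey blocks the other genes named in the text, and further genes are not drawn. Pc blocks run through the whole Doc cluster with the nearest RNA Pol II block 6.42 kb outside it, and the only RNA Pol II, Kismet and Brm blocks between H15 and mid sit near 33.7 kb.

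The gene bi (FBgn0000179) is the longest member, with 72792 bp on X from 4412856 to 4485647. Pc peaks held 54866 bp of it in 13 peaks. A single peak of 33657 bp, rank 4 by length of 2236 Pc peaks, made up more of this than the 12 others together. Only 5 of the 17684 genes held more base pairs in Pc peaks. They include the noncoding gene lncRNA:CR32773 (81344 bp), inside which bi lies. By percent of the body, 266 genes had higher cover than bi. Cover of bi was lower toward the high-coordinate end. In 4 equal stretches of 18198 bp it was 99.3%, 98.4%, 56.5% and 47.3%. The longest stretches without a Pc peak were 4912 bp and 5077 bp, both in the second part of the gene, and the last 1886 bp were free as well.

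No other list had a peak in bi or within 5 kb of it. The nearest HP1 peak was 45.3 kb, the nearest RNA Pol II peak 54.6 kb, the nearest Trr peak 55.2 kb and the nearest Kismet peak 69.9 kb from its high-coordinate end. All of bi lies inside lncRNA:CR32773, an annotated noncoding gene of 223710 bp. That gene held 10 RNA Pol II peaks over 8.19% and 7 Kismet peaks over 17.1% of its length, all of them beyond bi. A peak has only a start and an end and no strand, so peaks over shared base pairs cannot be assigned to bi or to the noncoding gene.

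**Figure D3:**
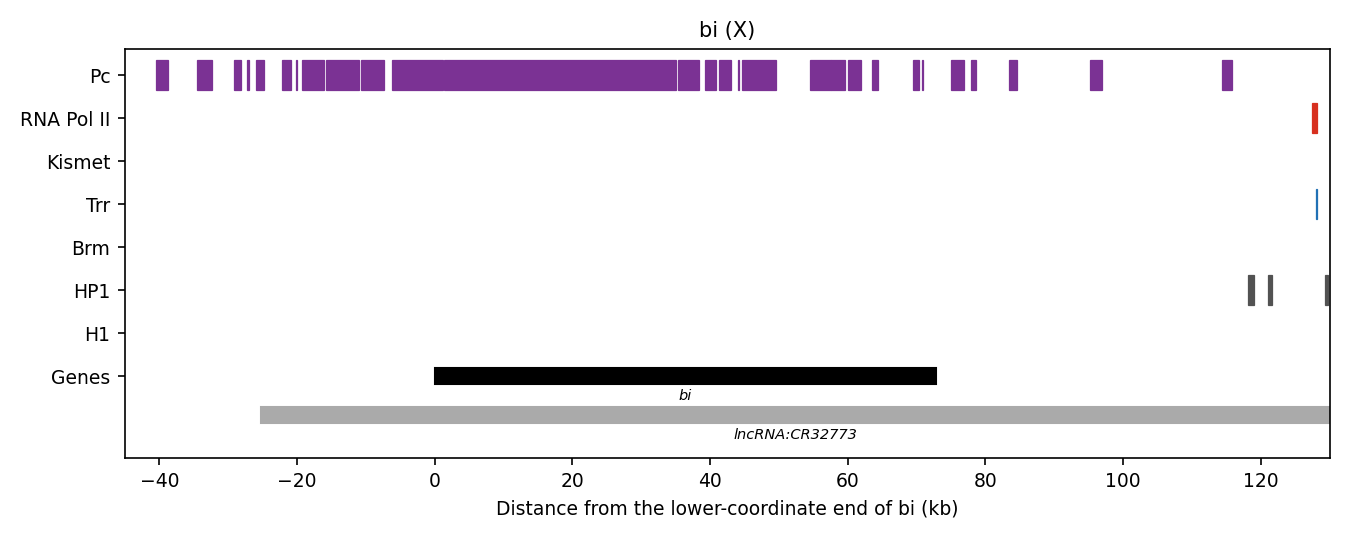
Peaks of each list (coloured blocks, 1 row a list) against the distance in kb from the low-coordinate end of bi; the black block is bi, the grey block is lncRNA:CR32773, which runs past the right edge, and further genes are not drawn. Pc blocks are dense over the first 49595 bp of bi and more broken after that, and the first RNA Pol II block lies 54.6 kb beyond the gene.

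The gene org-1 (FBgn0021767, X from 8447691 to 8455069) had the only Kismet peak in a T-box gene body. It runs from 8449413 to 8450157 and covers 745 of 7379 bp, or 10.1%, which is shorter than the median Kismet peak of 1783 bp. The same body held 172 bp in 1 Pc peak, from 8454136 to 8454307, and a second Pc peak of 811 bp lay within 5 kb on the low-coordinate side. The body held 0 RNA Pol II peaks. Kismet and RNA Pol II have their 3 Dam-only samples in common, and Pc shares none of them. The nearest Trr peak was 24.9 kb and the nearest Brm peak 38.5 kb away.

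With 5 kb on both sides, org-1 was the only T-box gene with an RNA Pol II peak. This peak of 2326 bp starts 4.33 kb from the gene, over CG15347 and Es2, and reaches 675 bp into the window. CG15347 had 62.5% of its body in RNA Pol II peaks and 49.4% in 2 Kismet peaks. Between it and org-1, CG32713 held no peak of any list.

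The gene byn (FBgn0011723, 3L from 11927693 to 11935919) held no peak of any of the 7 lists, in its 8227 bp or within 5 kb. Of all genes, 48.5% held no peak of any list in the body. Among the 7092 protein-coding genes of the T-box length range it was 34.0%, so byn is one of many. Its nearest Pc peak was 482 kb away, and 3.64% of genes were farther from one. The other nearest peaks were at 9.84 kb (Trr, at mir-285), 30.2 kb (Kismet), 30.3 kb (RNA Pol II) and 38.8 kb (Brm). The body of byn lies inside CG44837, a gene of 88228 bp that held no peak either, and SdhAL, 2935 bp away, held none.

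**Figure D4:**
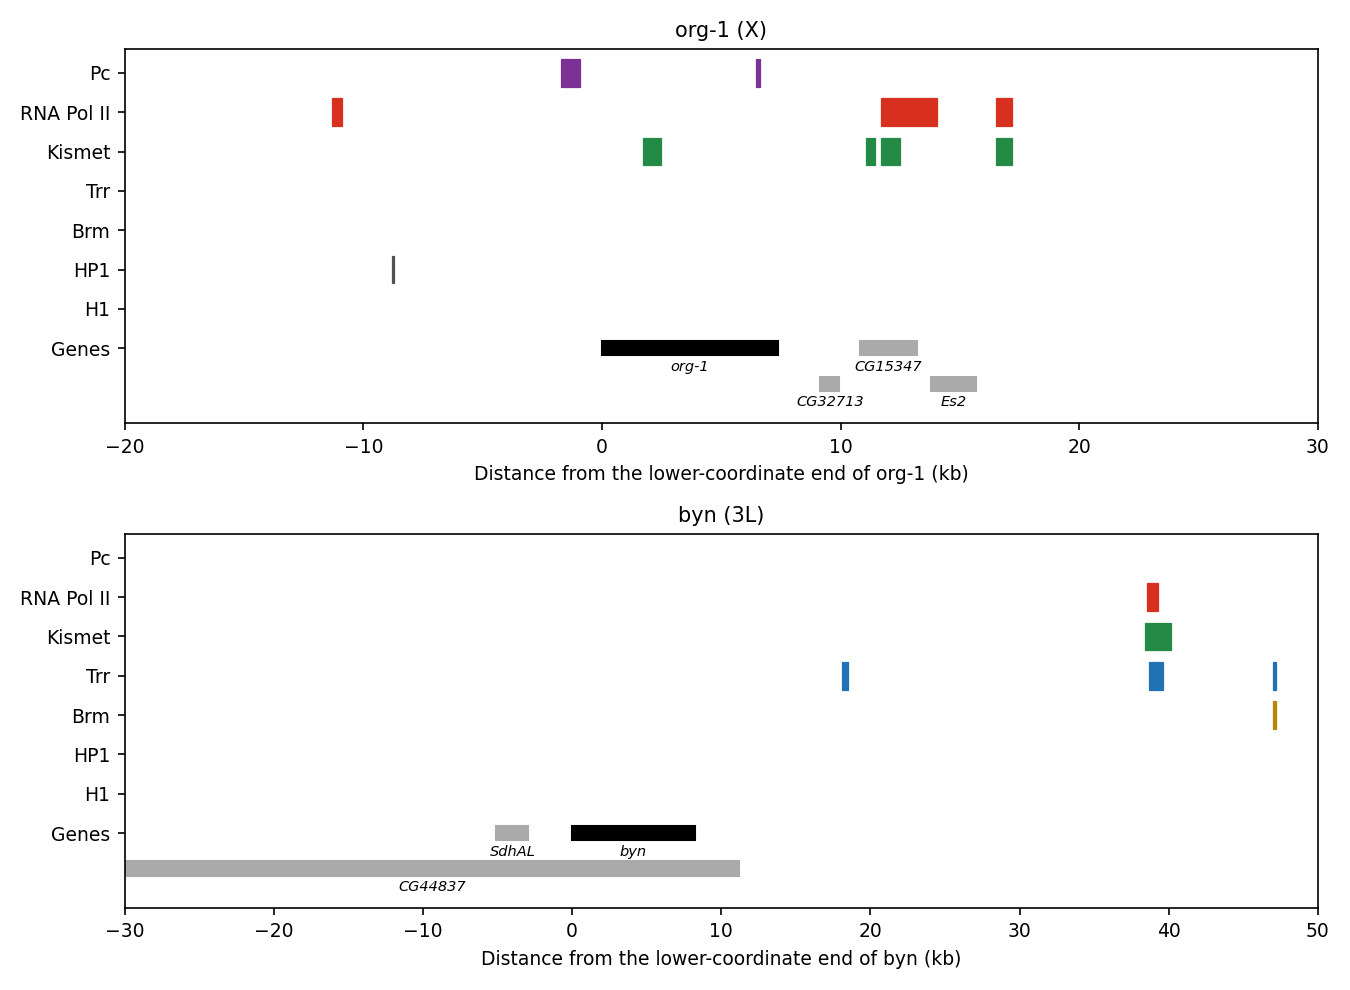
Peaks of each list (coloured blocks, 1 row a list) against the distance in kb from the low-coordinate end of org-1 (top) and byn (bottom); black blocks are T-box genes, grey blocks the other genes named in the text, and further genes are not drawn. The body of org-1 holds 1 Kismet block of 745 bp and 1 Pc block of 172 bp, and the body of byn holds none.

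The ends of the genes were read from the same peaks and add no separate result. Doc1, Doc3 and mid lie wholly in Pc peaks, so both of their ends had to be touched. The free stretches of Doc2 lie inside the gene. A Pc peak lay within 500 bp of both ends of Doc1, Doc2, Doc3 and mid, 4 of 8 T-box genes, where 2.15% of all genes passed. In H15 and bi only the low-coordinate end was touched, and in org-1 and byn neither. No peak of any of the other 6 lists lay within 500 bp of an end of a T-box gene. Which end holds the transcript start cannot be read from the gene table.

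The Pc peaks at these genes were long. The 22 distinct Pc peaks that touched a T-box body had a median length of 1968 bp, against 919 bp over the Pc list, and 5 of the 22 were of 10 kb or more, as were 4.79% of the list. Long peaks touch more genes, so a higher median is partly built into this comparison. With Pc peaks joined over gaps of up to 5 kb, the list formed 695 domains with a median of 1512 bp. The domain over H15 and mid was 109 kb long (rank 9), with 75995 of 108554 bp in 24 peaks, and touched 9 annotated genes of which only H15 and mid code for proteins. The main domain of bi was 105 kb long (rank 10), with bi as the only protein-coding gene touched. The Doc domain was 49.1 kb long (rank 39) and touched 7 protein-coding genes. A further domain of 15031 bp (rank 129) reached the high-coordinate end of bi, and that of org-1 was its single peak of 172 bp (rank 614).

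Ranks depended on the gap allowed. With gaps of up to 1 kb, bi held the domain of rank 2 of 1481 (55.8 kb) and the Doc cluster that of rank 5 (45.4 kb), while H15 and mid were split into separate domains of 24.4 kb (rank 49), 2.91 kb and 13.5 kb (rank 112).

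**Figure D5:**
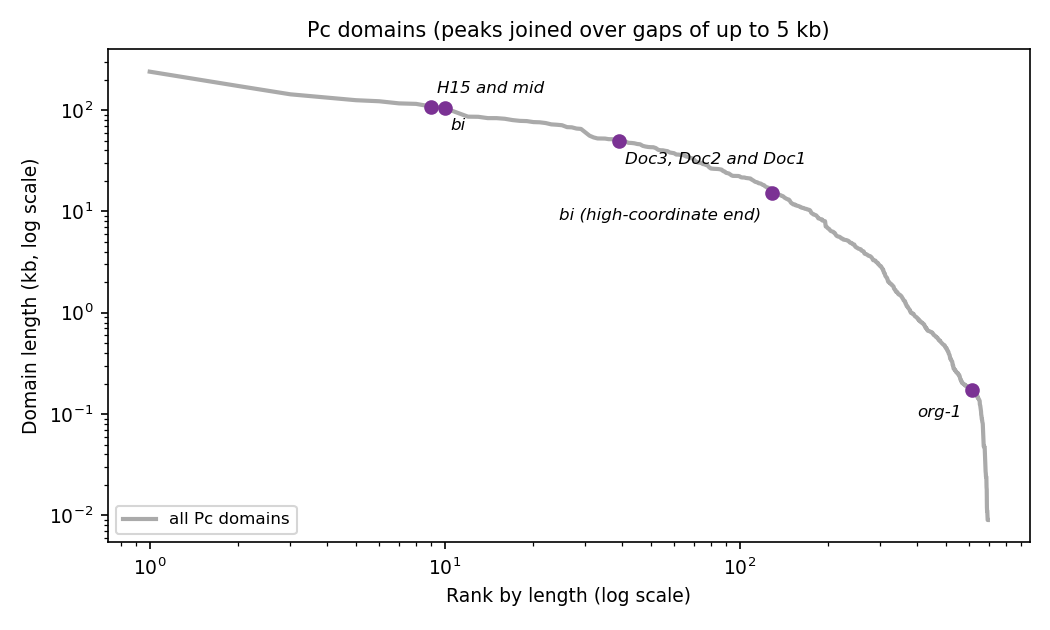
Length in kb (y axis, log scale) against rank by length (x axis, log scale) of the 695 Pc domains made by joining peaks over gaps of up to 5 kb; points mark the 5 domains that touch a T-box gene. The domains of H15 with mid (109 kb) and of bi (105 kb) are at ranks 9 and 10, and the domain of org-1 (172 bp) is at rank 614.

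Of the 10 annotated genes that overlapped a T-box gene or lay within 5 kb of one, 8 code for proteins. Pc peaks were found in 3 of these 8 (CG5087, CG5194 and Argk1), against 5.21% of all genes. All 3 are touched by the Doc domain, so they are not separate loci. RNA Pol II peaks were found in 2 (CG5087 and CG15347), against 41.5% of all genes. No peak of any list was found in 4 (Argk2, CG32713, CG44837 and SdhAL), near the 48.5% of all genes. CG5194, between Doc3 and Doc2, was the only one wholly in a Pc peak.

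Genes that work beside the T-box factors in embryonic and larval development were looked at by lists of the same tissues. Of 12 genes of the heart and dorsal mesoderm, 7 had at least 50% of the body in Pc peaks and 0 had at least 50% in RNA Pol II peaks. RNA Pol II peaks of any length were found in 3 of the 12, against 41.5% of all genes. Of the 7 genes, 6 held no RNA Pol II peak. The highest Pc cover was in the homeobox genes eve (100%), lbe (87.6%) and tin (79.4%), in svp, a nuclear receptor gene (77.7%), and in the GATA factor gene pnr (76.0%). Their median Pc cover was 62.3%. Of 11 genes of wing and eye patterning, 6 had at least 50% in Pc peaks, led by vg (99.8%), wg (81.6%), ap (76.9%), salm (75.9%) and hth (67.4%). In that list brk, a repressor of Dpp targets, was the only gene with at least 50% in RNA Pol II peaks (66.7%). RNA Pol II peaks of any length were found in 6 of the 11, against 41.5% of all genes. Of the 6 genes with at least 50% in Pc peaks, 4 held none. The median Pc cover of that list was 54.0%.

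The hindgut list, set beside byn, was more mixed. Of its 10 genes, 4 had at least 50% in Pc peaks, Dr (100%), en (95.9%), drm (95.1%) and otp (63.4%). RNA Pol II peaks covered at least 50% of 3 genes, fkh (91.9%), drm (78.2%) and cad (71.6%), and drm thus held both. Both fkh and cad are transcription factor genes of the gut, and cad is also used in the adult gut. The median Pc cover of this list was 6.82%. No peak of any list was found in 2 of the 10, against 48.5% of all genes. These were tll and hkb, which act upstream of byn in the posterior of the embryo. Of 9 genes of muscle identity, 3 had at least 50% in Pc peaks, ap (76.9%), tup (62.2%) and bin (52.0%), with a median of 13.7% and 0 genes at 50% or more for RNA Pol II. RNA Pol II peaks of any length were found in 5 of the 10 hindgut genes and in 4 of these 9, near the 41.5% of all genes. Of these 9, 3 held no peak of any list, against 48.5% of all genes. They were jeb, Alk and sns, which act in the founding and fusion of muscle cells. Over all genes the median Pc cover was 0%, 2.08% had at least 50% in Pc peaks and 14.4% had at least 50% in RNA Pol II peaks. The lists hold genes picked for their known roles in embryonic and larval development, and no test was made of them. The genes ap, Mef2 and bap each stand in more than 1 list.

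The genes most like each T-box gene were found from the 7 percentages of body base pairs in peaks, over 13922 protein-coding genes. Doc1, Doc3 and mid each had 44 genes with the same values, 100% Pc and 0% for the other lists. Doc2 was nearest to E5, a homeobox gene (94.6% Pc, a distance of 0.0245 percentage points), and bi was nearest to hui (75.5% Pc, 0.172 points). H15 was nearest to dmrt93B (71.1% Pc, 4.13 points). For org-1 it was CG32204, with 11.5% in Kismet and 0.677% in Pc peaks (2.17 points). With byn, 6226 protein-coding genes shared the absence of peaks.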

How the data were processed

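The authors aligned DamID reads with Bowtie2 to version 6 of the D. melanogaster genome, extended them to 300 nt or the first GATC site, counted coverage per GATC site with bedtools and discarded sites with under 5 counts on average. The authors then ran DESeq2 on fusion against Dam-only samples, and runs of 2 or more significant sites (adjusted p below 0.01, positive fold change) were merged. The deposited lists hold the resulting start and end of each peak in base pairs and no count, so the depth per sample is unknown. Tool versions are not given in the sources used here.

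Gene bodies came from the RefSeq table of release 6, which has no strand or exons, and FlyBase identifiers were joined by symbol (8 of 8). Peak starts were counted from 0 and are printed from 1. At least 1 bp in a peak counted as bound, in place of the authors' consecutive GATC sites, since no map of GATC sites was used here. Overlapping windows were counted once in summed base pairs. The overlap code was tested on simulated data (2000 windows, 0 wrong). No test was run: members of a family are not replicates, and each list is 1 call. Counts were set beside the same share of all genes instead. The members and lists were chosen with earlier results of these data known. Named genes were the 8 members, protein-coding neighbours within 5 kb, up to 5 genes a list in order of cover, and the nearest gene by cover. Other genes (smg, Es2, mir-285, tll, hkb, jeb, Alk, sns and the lncRNA genes) were chosen once their values were known. Delta is listed in the marker list by its RefSeq symbol, and kirre, entered under 2 names, was counted once. Python 3.11.15, NumPy 2.4.6, SciPy 1.17.1 and matplotlib 3.10.9 were used.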

Additional observations from a re-analysis of the deposited data

How the results depend on the processing

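No paired analysis was possible because each deposited list is 1 call over all samples of a fusion; for the same reason no sample could be left out. Of 46 alternative counts of T-box genes with a peak, 39 stayed within 1.5 times the main count. This tally does not measure stability. The main count in the body was 0 for RNA Pol II, Trr, Brm and HP1, and stricter settings could only return 0 there. With each locus counted once, chosen after seeing the data, Pc peaks were found at 4 of 5 loci. RNA Pol II peaks were found in 1 gene with 5 kb added and in 2 with 10 kb added, where the second is Doc3. The Kismet count was 0 with at least 50% of the body or with only peaks of median length or more, and the H1 count was 0 with at least 10% or at least 50% of the body. Pc cover of the summed bodies (68.6%) was 68.1% with 1 kb added, 64.7% with 5 kb added, 67.0% with only peaks of median length or more, 58.0% without bi and 67.9% as a mean of 8 percentages. RNA Pol II cover (0%) was 0.347% with 5 kb added. Kismet cover (0.626%) was 0.552%, 0.933%, 0% and 1.61% under the same 4 settings as Pc and 1.26% as a mean. Trr cover stayed at 0% under all 5. The 5 Pc domains at T-box genes became 9 with gaps of up to 1 kb and 4 with gaps of up to 10 kb.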
